A study of Mus musculus with 3 samples.

Results

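The genes described here are 6 keratins of simple epithelia (Krt7, Krt8, Krt18, Krt19, Krt20 and Krt23) and 2 surface proteins of epithelial cells, Epcam and Tspan8. They were found by name among the probes of 3 single-colour Agilent expression arrays of C57BL/6 mouse tissue. The 8 genes had 10 probes, out of 19712 named genes and 41174 probes, with Epcam listed under its older symbol Tacstd1. The tissues were adult liver of 12-week-old mice, fetal liver at gestation day 13.5, and bone marrow, whose donor age the labels do not state plainly. No genetic change or treatment is given for any of them. Each tissue had 1 array, so no difference could be set against a spread between animals, no test was made, and every fold below compares those arrays only.

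Keratins form the intermediate filaments of epithelial cells. A filament is built from pairs of unlike chains, each pair joining a type I chain with a type II chain, and a chain left without a partner is generally degraded. Krt8 (type II) and Krt18 (type I) are the pair of hepatocytes, while Krt7 (type II) and Krt19 (type I) mark the lining cells of bile ducts. Krt20 is a type I keratin known from gut and urinary tract linings, and Krt23 is a type I keratin of simple epithelia. Epcam is a homophilic adhesion molecule carried by hepatoblasts and bile duct cells. Tspan8 is a tetraspanin, a protein that crosses the membrane several times and gathers other proteins into membrane domains. The fetal liver at this stage also makes blood, and adult marrow takes over that role.

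All 3 arrays lay on 1 slide and were read in 1 scan. Each held 43379 gene spots, of which the share well above background was 52.6% on the adult liver array, 58.7% on the fetal liver array and 58.8% on the marrow array, by the scanner software's own call. No gene spot was saturated. The 75th percentile of the processed signal, to which each array was scaled, was 296.5 in adult and 386 in fetal liver, and 894.5 in bone marrow. Signals below are the deposited processed intensities before that scaling, with the software's error of the spot. Folds and log2 differences are after it, with the same error carried through. This error covers the measurement of 1 spot and not the spread between animals. Gene probes printed 10 times on each array had a median log2 SD between 0.041 and 0.068 for signals over 100, and between 0.15 and 0.196 for signals of 20 to 100. Against the tissue labels, 11 of 11 compared genes of the hepatocyte list were higher by at least 4-fold in adult liver than in marrow, and 8 of 9 genes of the leukocyte list were at least 4-fold lower. Over all compared genes 18.8% were higher and 15% lower. These are whole tissues, in which fewer cells of a type and less RNA per cell cannot be told apart.

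Fetal liver had the widest repertoire of the 8 genes. Adult liver had 5 of them well above background, fetal liver 7 and bone marrow 5, and Krt7, Krt8 and Krt18 were above it in all 3. Over all named genes the corresponding shares were 65.4%, 70.4% and 70.7%, with 59.3% above it in all 3. Adult liver lacked a call for Krt20, Epcam and Tspan8, fetal liver for Epcam alone, and bone marrow for Krt19, Krt20 and Krt23.

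**Figure D1:**
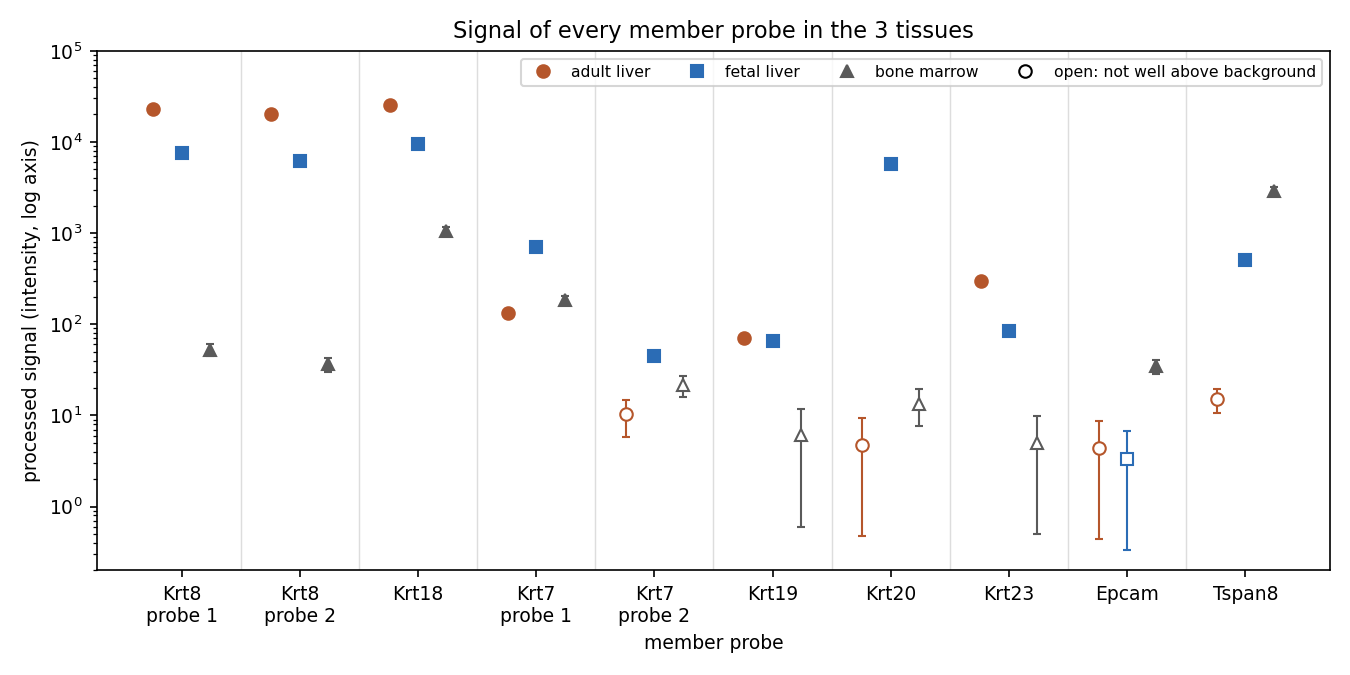
Processed signal (intensity, log axis) of each of the 10 probes of the 8 genes in adult liver, fetal liver and bone marrow, 1 array each. Bars show the scanner software's error of the spot, shortened below where they would near 0, and open symbols mark probes not well above background. Krt8, Krt18 and Krt23 are highest in adult liver, Krt20 is above background in fetal liver only, and Epcam in bone marrow only.

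The hepatocyte pair Krt8 and Krt18 changed by nearly the same amount between the livers and by very unequal amounts between liver and marrow. The probe standing for Krt8, on the minus strand of chromosome 15 (mm9, chr15:101827214-101827273), had a signal of 22800 ± 2280 in adult and 7650 ± 765 in fetal liver, and 52.7 ± 8.01 in bone marrow. The Krt18 probe, on the plus strand of the same chromosome (mm9, chr15:101862341-101862400), had 25400 ± 2540 in adult and 9550 ± 955 in fetal liver, and 1050 ± 105 in bone marrow. Both genes were thus highest in adult liver and lowest in marrow, and the marrow signal of Krt18 remained far from background while that of Krt8 was close to it. Krt8 was 3.88-fold higher in adult liver than in fetal liver (log2 difference 1.96 ± 0.20), and Krt18 was 3.46-fold higher (1.79 ± 0.20). The difference of those differences, 0.16 ± 0.29 on the log2 scale, was within the spot error. Fetal liver exceeded bone marrow 336-fold for Krt8 (8.39 ± 0.26) but 21.1-fold for Krt18 (4.40 ± 0.20). That gap between the partners was 4.0 ± 0.33 on the log2 scale, many times the spot error. Between adult liver and bone marrow the folds were 1305 for Krt8 and 73.0 for Krt18, a gap of 4.16 ± 0.33. With the normexp background correction, which lifts dim signals, the log2 differences of fetal liver over marrow were 6.99 for Krt8 and 4.19 for Krt18. Since both partners are read on the same array, no scaling by 1 value per array alters these gaps, although other expressed type II partners are not counted in them. Among all genes, 39 of 14676 were further towards fetal liver against marrow than Krt8, and 295 were further than Krt18.

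A second Krt8 probe lies nearby on the same strand (mm9, chr15:101827346-101827405) and ran in parallel. Its signal was 20200 ± 2020 in adult and 6200 ± 620 in fetal liver, and 36.6 ± 6.54 in bone marrow. It put Krt8 4.24-fold higher in adult liver than in fetal liver, just past a 4-fold limit that the first probe just missed. Its folds were 393 for fetal liver over bone marrow and 1665 for adult liver over bone marrow.

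The Krt8 and Krt18 genes lie close together on chromosome 15 in opposite orientation, and the 250 bases before each start are shown because the pair differed so unequally in marrow. The sequences are RefSeq's on GRCm38.p6, a different build from that of the probe positions, and run 5′ to 3′ on the gene's own strand. They are chr15:102004343-102004592 on the minus strand for Krt8 and chr15:102027966-102028215 on the plus strand for Krt18. Capitals mark a match to any of the motifs searched on both strands, which were TATAAA (the TATA box), CCAAT (bound by NF-Y), GGGCGG (bound by Sp1 and its relatives), GTTAAT (part of the HNF1 motif) and, for GATA factors, TGATAA or alternatively AGATAA. No printed match overlaps another.
Krt8: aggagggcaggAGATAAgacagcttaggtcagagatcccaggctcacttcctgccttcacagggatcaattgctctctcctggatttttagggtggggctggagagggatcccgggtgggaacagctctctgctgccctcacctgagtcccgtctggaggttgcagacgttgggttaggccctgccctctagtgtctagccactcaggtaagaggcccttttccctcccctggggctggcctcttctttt
Krt18: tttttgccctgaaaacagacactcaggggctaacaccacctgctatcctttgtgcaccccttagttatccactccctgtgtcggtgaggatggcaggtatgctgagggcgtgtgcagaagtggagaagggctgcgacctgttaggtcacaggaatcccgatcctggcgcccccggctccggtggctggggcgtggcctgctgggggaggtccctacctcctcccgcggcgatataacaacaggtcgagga
Krt8 held 1 match, AGATAA, 239 to 234 bases before the start. Krt18 held none. The GATA forms occurred in 16.6% of 32851 promoter windows of this length, TATAAA in 12.4%, CCAAT in 33.8%, GGGCGG in 32.7% and GTTAAT in 6.43%. The GC content was 58% for Krt8 and 60.4% for Krt18, against a median of 52.4% over all windows. A match is a stretch of letters and not a shown binding site.

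The bile duct pair did not move as a pair. Krt7, read by a probe on the plus strand of chromosome 15 (mm9, chr15:101258172-101258231), had a signal of 132 ± 14.1 in adult and 700 ± 70.1 in fetal liver, and 185 ± 19.4 in bone marrow. Fetal liver was the high sample. Krt7 was 4.07-fold lower in adult liver than in fetal liver (log2 difference −2.03 ± 0.21), just past 4-fold, and 8.77-fold higher in fetal liver than in bone marrow (3.13 ± 0.21). Adult liver and bone marrow were nearer each other, 2.15-fold apart with adult liver higher. The 4-fold call between the livers was lost under median scaling (−1.98 on the log2 scale), normexp (−1.57), the mean of both probes (−1.89) and the authors' deposited normalized column (−1.95). That column rests on the spots' signal error and not on their signal. With scaling to spike-in controls, fetal liver over marrow fell within 4-fold (0.93), and adult liver was lower than marrow (−1.64). A second Krt7 probe (mm9, chr15:101253718-101253777) had 10.3 ± 4.44 in adult and 45 ± 5.56 in fetal liver, and 21.4 ± 5.55 in bone marrow. It was well above background in fetal liver only, and so put adult liver at least 1.83-fold lower than fetal liver and fetal liver at least 4.4-fold higher than bone marrow.

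Krt19, the type I partner, had a signal of 70.1 ± 8.51 in adult and 64.9 ± 7.46 in fetal liver, and 6.05 ± 5.66 in bone marrow, where it was not well above background (minus strand, mm9, chr11:100002392-100002451). The livers overlapped within the spot error before scaling and were 1.41-fold apart after it, with adult liver higher (0.49 ± 0.24). With spike-in scaling that difference was −0.05, so the livers have no settled order for Krt19. Fetal liver was at least 6.35-fold higher than bone marrow, and adult liver at least 8.92-fold higher. The fetal call against marrow was lost with spike-in scaling (0.46 on the log2 scale), normexp (1.62) and the authors' deposited normalized column (1.57), and the adult call with spike-in scaling (0.41). Krt7 minus Krt19 was −2.52 ± 0.32 on the log2 scale between adult and fetal liver, which is larger than the spot error.

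Other genes of the bile duct list went in both directions between the livers, as did genes over the whole array. Of its 18 genes, which leave out the 8 genes described here, 10 were above background in adult and 12 in fetal liver, and 8 in bone marrow. Of all named genes, 65.4%, 70.4% and 70.7% were in the same order. Between adult and fetal liver 3 of 12 compared genes were at least 4-fold higher and 2 were lower, against 14.1% and 12.1% of all genes. Sox9, the transcription factor of the duct lineage, was 8.0-fold higher in adult liver than in fetal liver, and Spp1, which encodes osteopontin, was 156-fold higher. Slc10a2, a bile acid carrier, was at least 58.8-fold higher. Prom1, a surface protein of progenitor cells, was at least 6.26-fold lower in adult liver, and Cd24a, shared by progenitor and blood cells, was 447-fold lower. Cftr, Sctr, Cldn4 and Muc1 were not well above background in any tissue. The share of each cell type in these tissues was not measured, and its part in the keratin values was not tested.

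Markers of mesothelium, the surface layer of the liver that also carries simple keratins, were above background most widely in fetal liver, where Krt7 was highest. All 7 were above background in fetal liver, against 3 in adult liver and 2 in bone marrow, though at low signals of 25.1 to 214.4 in fetal liver. The shares of all named genes above it were 70.4%, 65.4% and 70.7% in that order. The summed scaled level of the list was 0.641 in adult and 1.51 in fetal liver, and 0.228 in bone marrow, where 1 is the 75th percentile of an array. Wt1 was 4.59-fold lower in adult liver than in fetal liver, and Upk3b at least 5.61-fold lower. These were the only 2 of 7 compared genes past 4-fold between the livers, where 12.1% of all genes were lower. Neither call was kept with normexp or with the authors' deposited normalized column. Msln was 1.65-fold higher in adult liver. The part of mesothelium in the Krt7 values was not tested.

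Krt20 was bright in fetal liver and not well above background elsewhere. Its probe (minus strand, mm9, chr11:99289776-99289835) had a signal of 4.75 ± 4.73 in adult and 5790 ± 579 in fetal liver, and 13.5 ± 5.76 in bone marrow. Krt20 was therefore at least 235-fold lower in adult liver than in fetal liver, and fetal liver was at least 566-fold higher than bone marrow. With normexp the log2 differences were −5.89 for adult over fetal liver and 7.09 for fetal liver over marrow. Adult liver and marrow, neither of them well above background, gave no fold. Of all genes, 38 of 14184 were further towards fetal liver against adult liver, and 28 of 14676 were further towards fetal liver against marrow. The value rests on a single spot. That spot carried no outlier flag, and its mean pixel intensity of 5530 was close to its median of 5085. Its pixels varied more than those of spots of similar brightness, with a coefficient of variation of 24.1% against a median of 13.6% over 2412 spots, and 1.78% of those spots varied at least as much. The 14 neighbouring spots had signals from 3.66 to 4040 with a median of 191.6.

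Of 9 markers of the gut lining, where Krt20 is best known, adult liver had 3 above background, fetal liver 4 and bone marrow 2. The shares of all named genes were 65.4%, 70.4% and 70.7% in the same order. Cdx1, Cdx2, Muc2, Cdh17 and Sis were not well above background in any of the 3 tissues, and Cdx2 had a signal of 3.86 in adult and 3.08 in fetal liver, and 4.82 in bone marrow. Vil1, which bundles actin in microvilli, had 10 in adult and 140 in fetal liver, and 10.8 in bone marrow. It was above background in fetal liver only. Tff3, a mucosal trefoil peptide, had 76.6 in adult and 301 in fetal liver, and 17.4 in bone marrow. Lgals4, a galectin, had 1440 in adult and 324 in fetal liver, and 444 in bone marrow. Fabp2, a fatty acid carrier, had 29700 in adult and 1290 in fetal liver, and 58.3 in bone marrow. It was 51.3-fold higher in fetal liver than in marrow. Of the 4 genes compared, 3 were at least 4-fold higher in fetal liver than in marrow, against 9.33% of all genes. The list's summed scaled level was 105.4 in adult and 5.39 in fetal liver, and 0.645 in bone marrow. In both livers that sum rested mostly on Fabp2, while Vil1 and Tff3 were higher in fetal than in adult liver. The part of gut lining cells in the Krt20 values was not tested.

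The Krt20 promoter window (RefSeq, GRCm38.p6, chr11:99438154-99438403, minus strand, shown on that strand) is printed because this gene had the largest fetal excess of the set. Capitals mark the same motifs.
Krt20: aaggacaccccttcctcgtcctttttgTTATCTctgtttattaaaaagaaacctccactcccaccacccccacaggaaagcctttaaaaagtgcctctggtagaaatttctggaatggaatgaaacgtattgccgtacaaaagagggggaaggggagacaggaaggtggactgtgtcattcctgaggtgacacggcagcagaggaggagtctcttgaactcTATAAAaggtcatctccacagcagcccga
It held TATAAA 29 to 24 bases before the start and TTATCT, which is AGATAA on the opposite strand, at 223 to 218 bases before it. Its GC content was 48%. The table of promoters had a window for 7 of the 8 genes, and Krt19 is the one not shown by it.

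Krt23 followed the tissue order of Krt8 and Krt18. It had 300 ± 30.2 in adult and 84.4 ± 9.03 in fetal liver, and 4.98 ± 4.96 in bone marrow, where it was not well above background (minus strand, mm9, chr11:99339393-99339452). The 3 samples were well apart. Krt23 was 4.63-fold higher in adult liver than in fetal liver (2.21 ± 0.21), and fetal liver was at least 8.25-fold higher than bone marrow. Adult liver was at least 38.2-fold higher than bone marrow. The 4-fold call between the livers was lost with spike-in scaling and with normexp (1.67 on the log2 scale in each). That of fetal liver over marrow was lost with spike-in scaling (0.84), normexp (1.95) and the authors' deposited normalized column (1.95).

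Tspan8 ran opposite to the hepatocyte keratins. Its signal was 15.1 ± 4.42 in adult and 509 ± 51 in fetal liver, and 2890 ± 289 in bone marrow (plus strand, mm9, chr10:115264929-115270289). Marrow was the high sample, and adult liver was not well above background. Fetal liver was 2.45-fold lower than bone marrow (−1.29 ± 0.20), which is larger than the spot error and below 4-fold. Adult liver was at least 20.7-fold lower than fetal liver and at least 50.7-fold lower than bone marrow. These bounds depend on the processing. The normexp background correction gave log2 differences of −2.48 for adult over fetal liver and −3.76 for adult liver over marrow. The authors' deposited normalized column, which rests on the spots' signal error and not on their signal, gave −3.16 and −4.49. The order of the 3 tissues was the same in these settings and under spike-in scaling. The probe's mapped span of 5361 bases, against 60 for each keratin probe, means that the file places its ends apart on the genome.

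Epcam was at or near background throughout. Its probe (plus strand, mm9, chr17:88048972-88049800) had a signal of 4.4 ± 4.32 in adult and 3.34 ± 3.33 in fetal liver, and 34.7 ± 6.23 in bone marrow. It was well above background in marrow only. After scaling, the lowest measurable level of either liver array was above the marrow value, so no fold could be given. With spike-in scaling, fetal liver was at least 4.60-fold lower than bone marrow and adult liver at least 4.08-fold lower. That scaling put 49.4% and 64.4% of all genes at least 4-fold lower in these comparisons. Neither Epcam bound went past the shift it gives every gene (−2.20 and −2.74 on the log2 scale). Fetal liver was at least 1.33-fold lower than marrow with median scaling and at least 1.498-fold lower with quantile normalization. The 75th percentile of detected probes gave 1.04-fold. None of these gave adult liver a fold. An absent call for this 1 probe gives only a bound on Epcam in the livers. Cldn7, a claudin that binds Epcam, was above background in all 3, with 81.6 in adult and 70.9 in fetal liver, and 110 in bone marrow.

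Counted together, the genes split between the livers and were mostly higher in liver than in marrow. At 4-fold, 1 of the 7 genes that could be compared was higher in adult liver than in fetal liver (Krt23), where 14.1% of all 14185 compared genes were, and 3 were lower (Krt7, Krt20 and Tspan8), where 12.1% of all were. Krt8, Krt18 and Krt19 lay within 4-fold. Between fetal liver and bone marrow 6 of 7 were higher in fetal liver, against 9.33% of 14677 genes, and none was lower, against 8.29%. Between adult liver and bone marrow 4 of 6 were higher in adult liver (Krt8, Krt18, Krt19 and Krt23), against 18.8% of 14244 genes, and Tspan8 was lower, against 15%. The median log2 difference of the compared members was 0.49 for adult over fetal liver, 3.13 for fetal liver over bone marrow and 4.21 for adult liver over bone marrow. Over all compared genes the medians were −0.06, 0.26 and 0.09 in the same order. Bounds enter these medians at their bound, and 2, 3 and 3 of the member values were bounds.

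The choice of scaling matters most against marrow. Scaling to the median of all spots put 6.75% of all genes higher and 10.6% lower in fetal liver than in marrow, and 15.3% higher and 18.4% lower in adult liver than in marrow. Scaling to the 7 spike-in control probes shifted every gene by −0.54 on the log2 scale for adult over fetal liver, by −2.20 for fetal liver over bone marrow and by −2.74 for adult liver over bone marrow. It put 10.1% of all genes higher and 18.3% lower in adult than in fetal liver, and 49.4% lower in fetal liver than in marrow. With it, Krt8, Krt18 and Krt20 were still at least 4-fold higher in fetal liver than in bone marrow, where 2.28% of all genes were. Krt8, Krt18 and Krt23 were still higher by at least 4-fold in adult liver than in bone marrow, where 5.99% of all genes were.

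**Figure D2:**
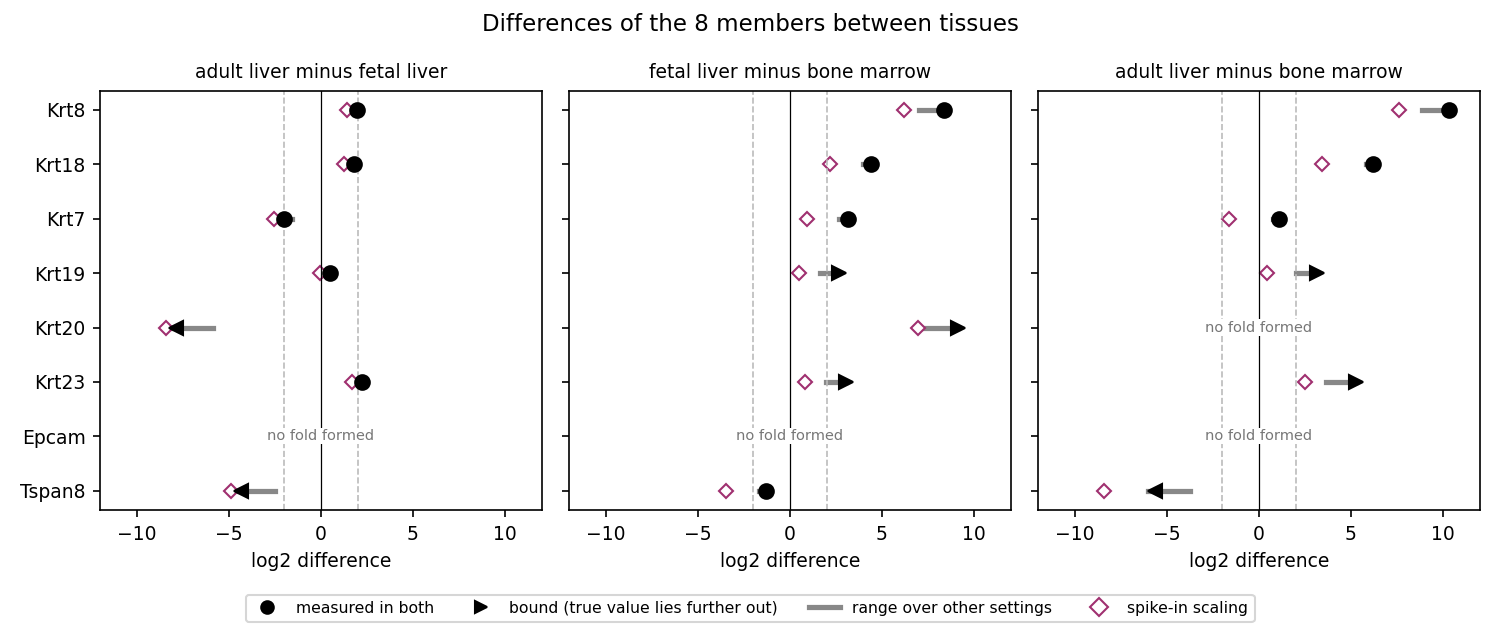
Log2 difference of each of the 8 genes between the named tissues, after scaling each array to its 75th percentile (black, with triangles for bounds and dashed lines at 4-fold). Grey bars span the other processing settings and open diamonds show spike-in scaling. The Krt8 and Krt18 values lie together for adult over fetal liver (1.96 and 1.79) and far apart for fetal liver over bone marrow (8.39 and 4.40).

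**Figure D3:**
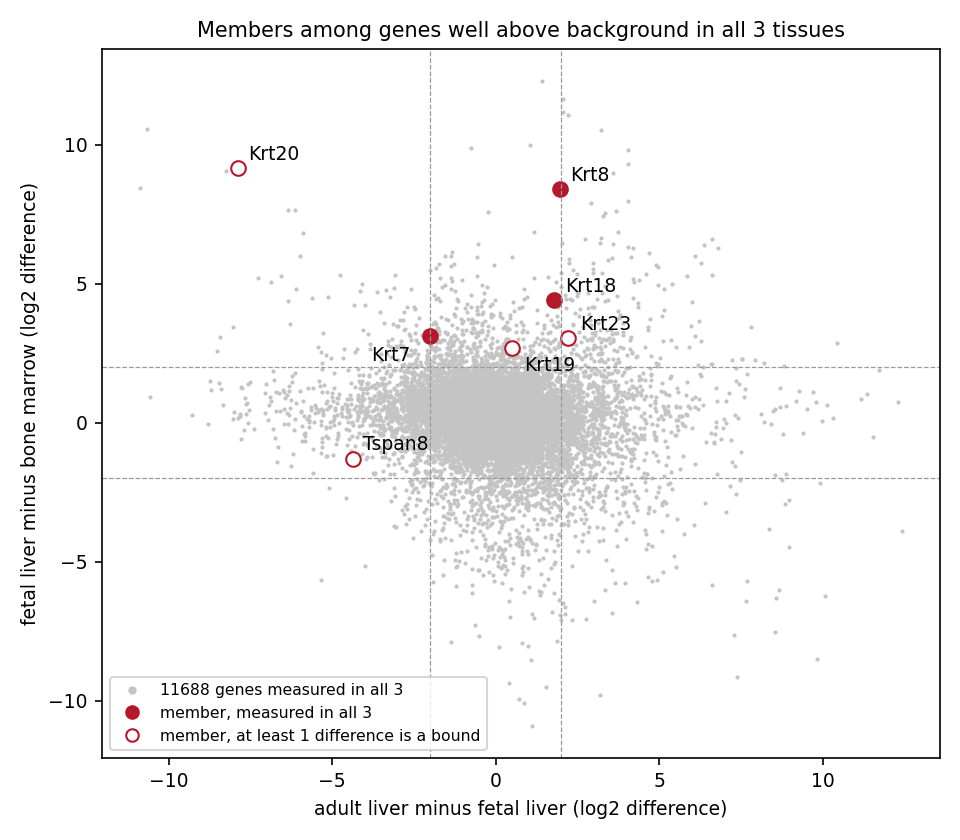
Log2 difference of adult over fetal liver (x axis) against that of fetal liver over bone marrow (y axis) for 11688 genes well above background in all 3 tissues (grey) and for 7 of the 8 genes (red, open where a difference is a bound), with dashed lines at 4-fold. Both axes share the fetal liver array. Krt20 lies at the upper left (−7.88 and 9.15), away from Krt8 (1.96 and 8.39).

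Most other keratins were dim. Of 38 further keratin genes on the array, adult liver had 13 well above background, fetal liver 14 and bone marrow 14, and 18 were above it in none. The 3 brightest per tissue are named next, though signals of different probes are not comparable as levels. Krt16, a type I keratin of stressed skin, gave the brightest signal of these in every tissue, with 367 in adult and 183 in fetal liver, and 515 in bone marrow. Next came Krt17 (210) and Krt10 (161) in adult liver, and Krt17 (175) and Krt14 (148) in fetal liver. In bone marrow they were Krt87 (390) and Krt86 (330), both hair keratins and not well above background in either liver. Krt87 was at least 11.2-fold lower and Krt86 at least 9.49-fold lower in fetal liver than in marrow. Krt16 lay within 4-fold in every comparison.

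**Figure D4:**
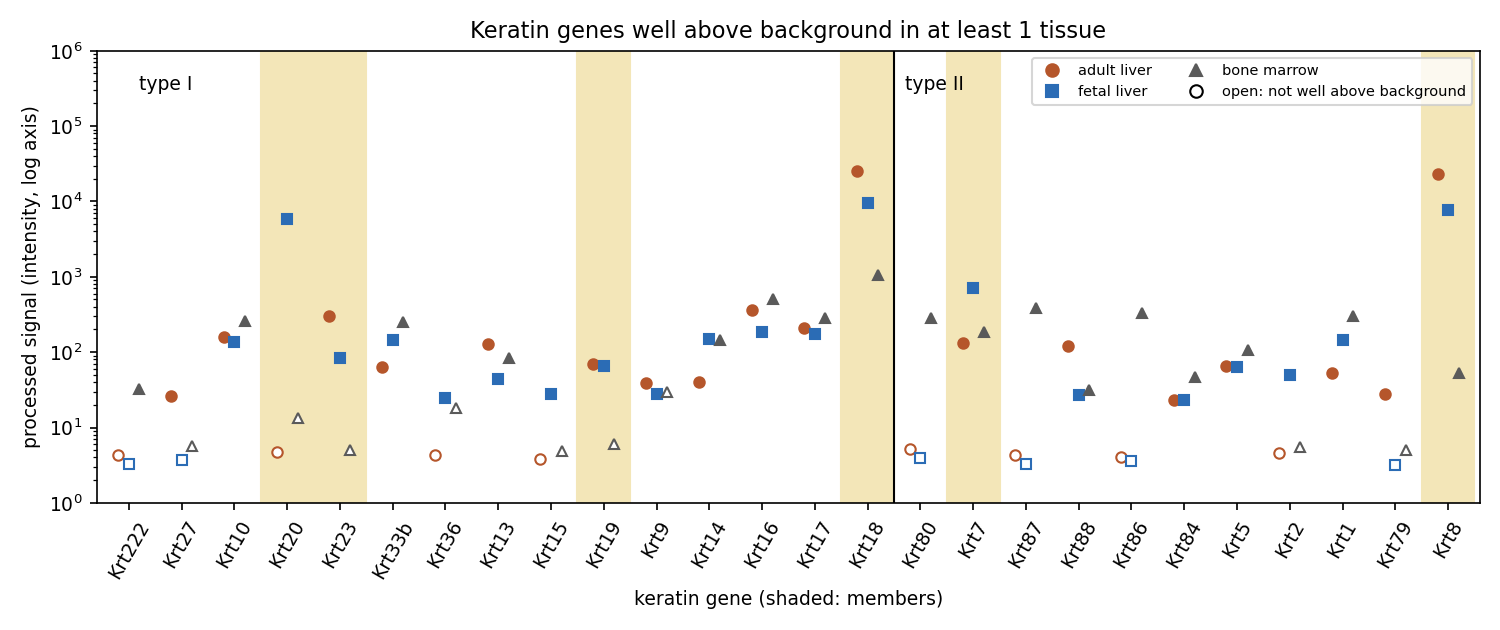
Processed signal (intensity, log axis) of every keratin gene well above background in at least 1 tissue, type I at the left and type II at the right, with the 6 keratins described here shaded. Open symbols are not well above background. Krt20 is filled in fetal liver only, with 5790, while Krt86 and Krt87 are filled in bone marrow only, with 330 and 390.

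Among genes that anchor keratin filaments, those at least 4-fold apart between the livers were all higher in adult liver. Of 17 plakin, desmosome and related genes, 12 could be compared between the livers, and 5 were higher by at least 4-fold in adult liver than in fetal liver and none lower, against 14.1% and 12.1% of all genes, with a median log2 difference of 1.84. With normexp 2 were higher. Perp, a desmosome-associated membrane protein, was 16.8-fold higher in adult liver, and the desmosomal cadherin Dsc2 was 10.1-fold higher. Between fetal liver and bone marrow 5 of 12 were higher and 1 was lower, against 9.33% and 8.29% of all genes. Desmoplakin (Dsp), which ties keratins to the desmosome, had 1120 in adult and 454 in fetal liver, and 80.8 in bone marrow. It was 13.0-fold higher in fetal liver than in marrow. Plakophilin Pkp2 had 1920 in adult and 628 in fetal liver, and 49.9 in bone marrow. Pkp3, another plakophilin, went the other way, with 137 in adult and 73.8 in fetal liver, and 2130 in bone marrow. Between adult liver and bone marrow 9 of 12 were higher and 1 lower, against 18.8% and 15% of all genes. With spike-in scaling the list's median for fetal liver over bone marrow turned to −0.98, and that for adult liver over bone marrow was 0.79.

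Of 18 tight and adherens junction genes compared, 5 were higher by at least 4-fold in adult liver than in fetal liver and none lower, against 14.1% and 12.1% of all genes, and 13 lay within 4-fold. The median log2 difference was 1.21. The claudin Cldn3 had 8430 in adult and 57.1 in fetal liver, and 70.3 in bone marrow, 192-fold higher in adult than in fetal liver. Cldn2 was above background in adult liver only, at 953, and at least 82.7-fold higher there than in fetal liver. The scaffold protein gene Tjp3 was 83.2-fold higher in adult than in fetal liver and 7.42-fold lower in fetal liver than in bone marrow. Cdh1, encoding E-cadherin, had 370.5 in adult and 758.9 in fetal liver, and 395.9 in bone marrow. It lay within 4-fold between the livers. Among epithelial transcription factors and splicing regulators, Esrp2, a regulator of splicing, had the largest difference between the livers, with 3770 in adult and 546 in fetal liver, and 6.22 in bone marrow, where it was not well above background.

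In the hepatocyte list 11 of 11 compared genes were at least 4-fold higher in adult than in fetal liver, against 14.1% of all genes, with a median log2 difference of 8.20. In the erythroid list 8 of 9 were lower in adult liver than in fetal liver, against 12.1% of all genes, with a median of −5.89. In the hepatoblast list 3 of 12 were higher in adult than in fetal liver and 5 lower, against those same shares of 14.1% and 12.1%. In fetal liver 10 of 12 were higher than in bone marrow, against 9.33% of all genes. The part of these shifts in the values of the 8 genes was not tested.

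**Figure D5:**
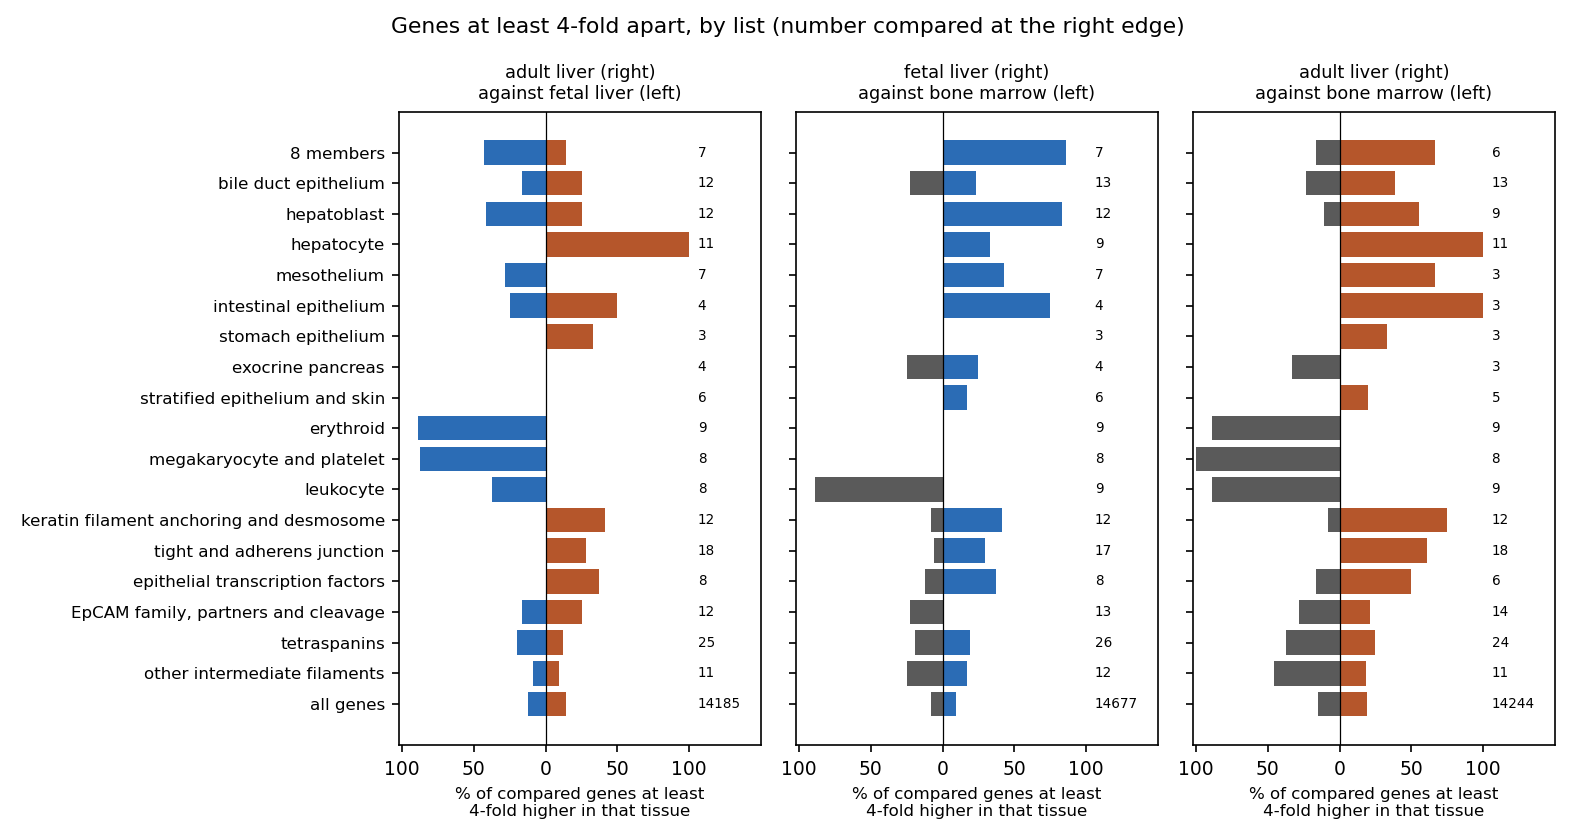
Share of compared genes at least 4-fold apart, for the 8 genes, 17 gene lists and all genes, in each of the 3 comparisons, with the higher tissue given by the side of the bar and the number compared at the right edge. The desmosome and junction lists have bars on the adult side only between the livers, as do the hepatocyte, stomach and epithelial transcription factor lists. The 8 genes have bars on both sides.

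The genes whose pattern over the 3 arrays was nearest were sought among 11688 genes well above background in all of them, by the Euclidean distance between their log2 levels, each centred on the gene's own mean. With 3 arrays such likeness is a description only. Nearest to Krt8 were Gltpd2, Hc and Proc at distances of 0.676, 0.972 and 0.995, the last 2 encoding complement C5 and protein C, secreted by hepatocytes. Nearest to Krt18 were Magi1, Bcar1 and Nectin3 at 0.162, 0.183 and 0.255, of which Magi1 and Nectin3 act at cell junctions. Nearest to Krt7 were Map3k12, Ccnd1 and Slc7a9 at 0.0678, 0.0806 and 0.099. Krt18 itself lay 3.33 from Krt8, with 86 genes nearer to Krt8 than it was. Seen from Krt18, 1733 genes were nearer than Krt8.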

How the data were processed

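Total RNA of each tissue was hybridised to 1 Agilent whole-genome array each. Per the file headers, the authors' scanner output was made with Agilent Feature Extraction 10.5.1.1, and its processed signal, a background-subtracted intensity, was used as deposited, with probe positions on mm9. The authors' deposited value table holds, per the file headers, a raw intensity column and a normalized column, which is a linear ratio of the raw one to a single value per array. The raw column equalled the scanner files' signal error within 1% on all 45018 spots of each array and was not used, and the normalized ratio, which rests on it, served as an alternative. How the authors chose that divisor is not given in the sources used here.

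Outlier-flagged spots (75 in adult liver, 71 in fetal liver, 80 in marrow) and control spots were left out. The log2 signal minus the array's 75th percentile was compared in 3 pairs with Python 3.11.15, numpy 2.4.6 and pandas 2.3.3. The probe standing for a gene was that with the most calls above background, and among equals that with the highest mean scaled level. A probe not well above background gave only a bound, against the higher of its own level and the lowest level called well above background. A bound under 1-fold gave no fold. The naming rule took at most 5 genes per list for their values, those with the largest differences or the partners of members, and 3 genes as most alike. Markers at background were named beside these. Other genes were chosen after their values were seen, among them Cdh1, Msln, Cdx2, Tff3, Tspan12, Tspan33, Klf5, Vim and Lmnb1. Symbols came from RefSeq by accession for 24844 probes, by symbol for 6045 and by older symbol for 1796, and 8489 stayed unnamed. The members and lists were chosen with earlier results of these data known. The steps were tested on simulated data, and 9 alternatives were tried, of which normexp used limma 3.58.1 in R 4.3.3.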

Additional observations from a re-analysis of the deposited data

How the results depend on the processing

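The 20 member differences kept their direction under median scaling, the 75th percentile of detected probes, quantile normalization, normexp, the mean of a gene's probes and the authors' normalized column. With spike-in scaling 18 did, the exceptions being Krt7 for adult liver over bone marrow and Krt19 for adult over fetal liver. The authors' column rests on the signal error of each spot and not on its signal, so it is no independent test of directions or calls. Counts at 4-fold moved more. Against 1 member higher in adult than in fetal liver, there were 2 with median scaling, 2 with the mean of probes, 0 with spike-in scaling, 0 with normexp and 3 at 2-fold. Against 3 lower, there were 2 with median scaling, normexp, the mean of probes and the authors' column, each without Krt7, and 1 when both tissues had to be well above background. Against 6 higher in fetal liver than in bone marrow, 4 remained with normexp and 4 with the authors' column, both without Krt19 and Krt23, 3 with spike-in scaling and 3 when both had to be above background. Against 0 lower, spike-in scaling gave 2 (Epcam and Tspan8) and the 2-fold limit 1 (Tspan8). Against 4 higher in adult liver than in marrow, 2 remained when both had to be above background. Against 1 lower, that filter gave 0 and spike-in scaling 2. With spike-in scaling 64.4% of all genes were lower in adult liver than in marrow, against 15%. It put 5.99% higher in adult liver than in marrow, against 18.8%. Normexp put 7.89% lower in adult than in fetal liver, against 12.1%, and 6.08% higher in fetal liver than in marrow, against 9.33%. At 2-fold, between 17% and 32.6% of all genes were called in each direction. The filter's lower counts follow from fewer genes compared, and the 2-fold counts from the lower limit, while the cause of the others was not tested. No paired analysis was possible because each tissue had 1 array. Leaving out an array removes its tissue, so no such setting was run. Signals near background leave Krt19, Krt20, Krt23 and Tspan8 with bounds in 1 or more comparisons and Epcam with no fold under the main scaling.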

Other observations

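Other tetraspanins did not share one direction with Tspan8. Of 25 tetraspanin genes compared, 3 were higher by at least 4-fold in adult liver than in fetal liver and 5 were lower, against 14.1% and 12.1% of all genes. Tspan33, known from red cell precursors, had a signal of 3660 in adult and 59500 in fetal liver, and 97200 in bone marrow. After scaling it was 12.5-fold lower in adult than in fetal liver and 1.42-fold higher in fetal liver than in marrow, where Tspan8 was lower. Tspan12 was highest in adult liver, with 10400 in adult and 1350 in fetal liver, and 103 in bone marrow. Between adult liver and bone marrow 6 of 24 were higher and 9 lower, against 18.8% and 15% of all genes.

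Of 11 intermediate filament genes outside the keratins compared between adult liver and bone marrow, 2 were at least 4-fold higher and 5 lower, against 18.8% and 15% of all genes. Between fetal liver and bone marrow 2 of 12 were higher and 3 lower, against 9.33% and 8.29%, with a median log2 difference of −0.27. Vim, which encodes the vimentin of mesenchymal and blood cells, had 945 in adult and 4810 in fetal liver, and 53600 in bone marrow. Lmnb1, a lamin of the nuclear envelope, had 50.7 in adult and 4820 in fetal liver, and 24400 in bone marrow. The transcription factor Klf5 had 7.38 in adult liver, where it was not well above background, 37.2 in fetal liver and 1520 in bone marrow.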
